A study of Mus musculus with 8 samples.

Results

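The 32 genes described here encode proteins of basement membranes and closely bound matrix: 6 collagen IV chains, 10 laminin chains, the linkers nidogen-1 and nidogen-2, the proteoglycans perlecan and agrin, collagens VIII, XV and XVIII, 2 hemicentins and 6 smaller secreted proteins. They were chosen by gene symbol, with earlier results of these data known. All 32 had a row among the 22518 genes of the table. RNA came from whole hearts of C57BL/6 mice at postnatal day 12, sequenced as 4 libraries from wild type littermates, called the controls below, and 4 from PHD2/3 endothelial knockout mice, in which 2 oxygen-dependent prolyl hydroxylases that mark hypoxia-inducible factors for degradation are deleted in endothelial cells. The driver of the deletion is not given in the sources used here, nor is it stated whether each library is a separate animal. The p-values therefore reflect spread among these 8 libraries only, and that spread may be technical. Because the tissue is a whole heart, fewer cells of a type and less RNA per cell cannot be told apart in any value below.

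A basement membrane is a thin sheet of matrix under endothelium and around each cardiac muscle cell, mural cell and nerve sheath. Trimers of one alpha, one beta and one gamma laminin chain polymerise on the cell surface, collagen IV trimers form a second, cross-linked network, and nidogens and perlecan tie the networks together. In heart capillaries the endothelial laminins carry the alpha 4 or alpha 5 chain, the muscle laminin carries alpha 2, and the collagen IV network is mainly built of alpha 1 and alpha 2 chains. Collagens XV and XVIII are related collagens that carry heparan sulfate or chondroitin sulfate chains and sit at the outer face of the sheet.

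Values are FPKM, fragments scaled to transcript length and library size, quantile normalised by the authors, so levels of different genes can be compared per length but sequencing depth is unknown. A change is the difference of mean log2(FPKM + 1), knockout minus wild type, ± SE from limma with 4 libraries per group, which understates the change of genes near 1 FPKM. A gene was called when its Benjamini-Hochberg adjusted p over all tested genes was under 0.05. Of the 32 members, 28 had a mean of at least 1 FPKM and were tested. Of these, 5 were higher in knockout hearts, 7 were lower and 16 did not pass the test, so 42.9% were called. Over all 11390 genes tested, 12.2% were called, 6.15% as higher and 6.01% as lower. Because the members were chosen with earlier results of these data known, these shares are a description and not a test. The median change was -0.09 over the tested members and -0.01 over all tested genes. The members that rose were Col4a1, Col4a2, Col18a1, Col8a1 and Tinagl1, and those that fell were Col15a1, Lama4, Lamc1, Agrn, Hmcn2, Smoc2 and Vtn. All 4 knockout values lay above all 4 control values for 7 tested members and below them for 6, against 10.3% and 10.4% of all tested genes, respectively.

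**Figure D1:**
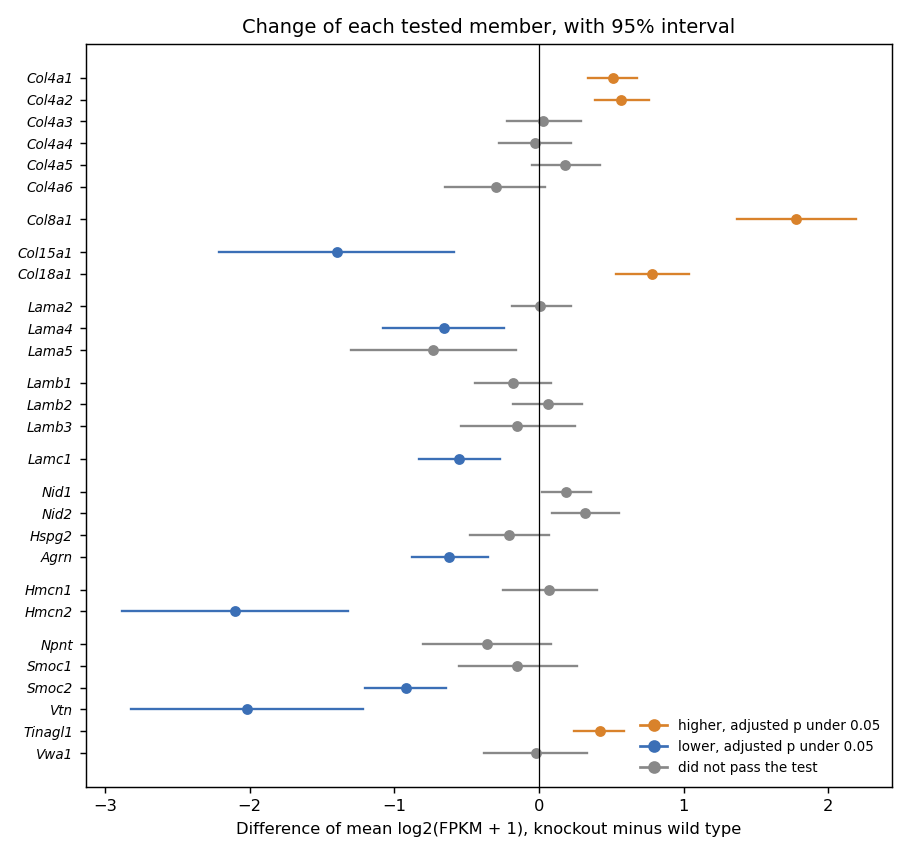
Change of the 28 tested members on the log2(FPKM + 1) scale, knockout minus wild type, as points with 95% intervals from limma, in the order collagen IV, collagen VIII, collagens XV and XVIII, laminin alpha, beta and gamma chains, linkers and proteoglycans, hemicentins and others; orange marks called higher, blue called lower and grey not called. The largest rise is Col8a1 at 1.78 and the deepest fall Hmcn2 at -2.10, and none of the laminin chains is called higher.

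Several facts of the libraries touch these results. Egln1 and Egln3, which encode PHD2 and PHD3, were at 52.9 ± 5.40 and 28.2 ± 8.83 FPKM (SD, n = 4) in wild type and at 57.4 ± 4.73 and 40.8 ± 8.58 FPKM in knockout hearts (exact two-sided permutation p = 0.314 and 0.0857, where 0.0286 is the smallest p that 70 splits allow), so the genotype is taken from the labels. Wild type replicate 4 held airway RNA, with Scgb1a1 at 1030 FPKM and at most 0.323 FPKM in every other library. The Y chromosome gene Ddx3y was at 0.104 FPKM in knockout replicate 1 and at 16.8 to 22.2 FPKM in the other knockout hearts. In the controls it was at 14, 0.138, 1.10 and 15 FPKM, so 2 controls and 1 knockout heart were low. Bmp10, a right atrial gene, was at 49.6 to 141 FPKM in replicates 2 and 3 of both groups and at most 1.12 FPKM in the other 4 libraries. Endothelial markers were present in every library: their summed level was 565 to 678 FPKM in controls and 507 to 602 FPKM in knockout hearts. Of the 10 markers, 2, Tek and Tie1, were called, both lower, against 6.01% of all tested genes called lower. The change was negative for 9 of the 10, with a median of -0.21. At an unadjusted limma p under 0.05, 4 were lower and 1 higher, where 14.8% of all tested genes were lower and 14.9% higher.

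The 2 main collagen IV chains rose together. Col4a1 (chromosome 8, 11198423 to 11312826 in mm10), which encodes the alpha 1 chain, was at 264, 259, 275 and 239 FPKM in controls 1 to 4 and at 410, 363, 360 and 347 FPKM in knockouts 1 to 4. The lowest knockout heart lay well above the highest wild type heart, and the mean was 1.43-fold higher (change 0.51 ± 0.08, limma adjusted p = 0.00429). Col4a2 (chromosome 8, 11312805 to 11449287), which encodes the alpha 2 chain of the same trimer, was at 176, 167, 180 and 153 FPKM in controls and at 254, 234, 240 and 280 FPKM in knockout hearts. Again no values overlapped, and the mean was 1.49-fold higher (change 0.57 ± 0.08, adjusted p = 0.00361). These are the most abundant members in both groups. Per length, the FPKM ratio of Col4a1 to Col4a2 was 1.5, 1.55, 1.53 and 1.56 in wild type and 1.62, 1.55, 1.5 and 1.24 in knockout hearts. The ratio was lower in knockout replicate 4 than in every other library, because Col4a2 was at its highest there and Col4a1 at its lowest among the knockouts. The annotated 5′ ends of the pair lie 21 bases apart on opposite strands, and their first exons share 22 bases.

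The other 4 collagen IV chains did not pass the test. Col4a5, whose alpha 5 chain pairs with alpha 6 in smooth muscle basement membranes, was at 30.8, 21.9, 25.4 and 25.1 FPKM in controls and at 27.0, 31.3, 28.6 and 30.4 FPKM in knockout hearts (change 0.18 ± 0.10, adjusted p = 0.263). Its values overlapped, and the 95% interval of the change ran from -0.05 to 0.42. Its head-to-head neighbour Col4a6 was at 1.99, 0.986, 0.974 and 1.67 FPKM in controls and at 0.804, 1.18, 1.0 and 0.724 FPKM in knockout hearts (change -0.30 ± 0.15, adjusted p = 0.221). Col4a3 and Col4a4, chains best known from kidney and lung, were near the filter. Col4a3 was at 1.35, 1.32, 1.51 and 1.04 FPKM in controls and at 1.5, 1.69, 1.04 and 1.25 FPKM in knockout hearts (adjusted p = 0.870). Col4a4 was at 2.0, 2.0, 2.31 and 1.79 FPKM in controls and at 2.15, 2.29, 2.05 and 1.44 FPKM in knockout hearts (adjusted p = 0.896). In wild type replicate 4, the library with airway RNA, both had their lowest wild type value. Col4a1 and Col4a2 together made up 92.4 to 95.5% of summed collagen IV FPKM in every library, and the sum was 422 to 485 FPKM in controls and 633 to 695 FPKM in knockout hearts.

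Collagens XV and XVIII, the only 2 multiplexins, moved in opposite directions. Col18a1 (chromosome 10, 77052178 to 77166548), the precursor of endostatin, was at 15.2, 18.8, 17.2 and 16.8 FPKM in controls and at 33.0, 32.3, 31.8 and 23.7 FPKM in knockout hearts. Every knockout value was above every wild type value, and knockout replicate 4 was the lowest of its group (1.78-fold, change 0.78 ± 0.11, adjusted p = 0.00380). Col15a1 (chromosome 4, 47208161 to 47313167), a collagen of capillary and muscle basement membranes, was at 110, 112, 113 and 122 FPKM in controls and at 75, 48.8, 49.4 and 18 FPKM in knockout hearts. The wild type values lay close together and the knockout values spread over more than 4-fold (mean 2.39-fold lower, change -1.40 ± 0.36, adjusted p = 0.0376). This call ended in 6 of 8 omissions of 1 library, with an adjusted p of up to 0.0971 without wild type replicate 2. It also ended under 5 of 11 other alternatives. Among these were the replicate number as a block (limma adjusted p = 0.0608) and no filter (0.0606). Of the summed FPKM of the pair, Col18a1 made up 12.1 to 14.4% in wild type hearts and 30.6, 39.8, 39.2 and 56.9% in knockout replicates 1 to 4. In replicate 4 it was the larger part.

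**Figure D2:**
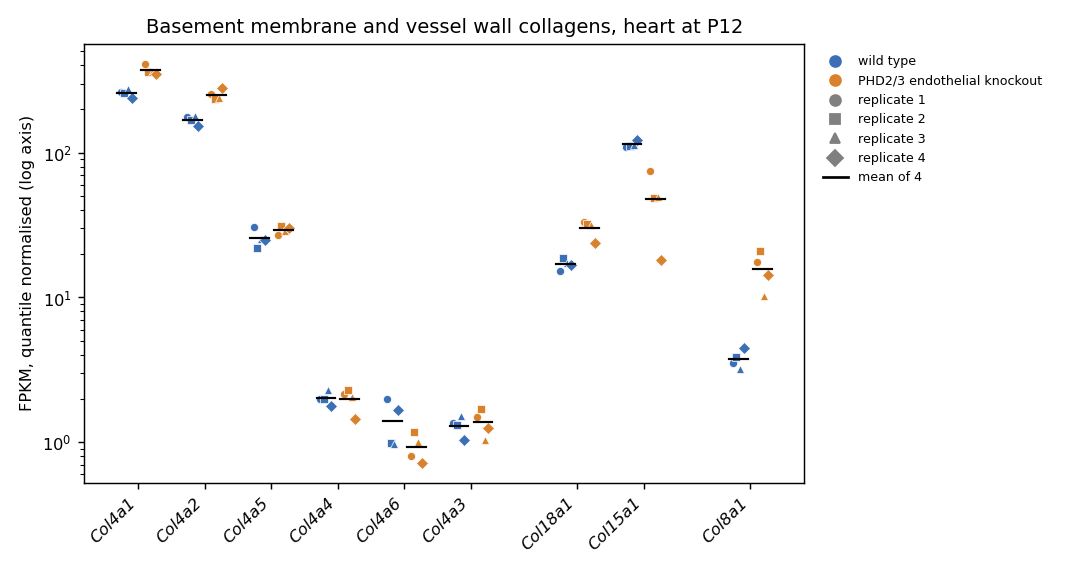
FPKM on a log axis of 9 collagen genes in each heart library; blue is wild type, orange is knockout, the marker shape is the replicate number with the group mean as a black line. Col4a1, Col4a2, Col18a1 and Col8a1 are higher in all 4 knockout hearts, Col15a1 is lower in all 4, and the remaining collagen IV chains overlap.

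Col8a1 (chromosome 16, 57624258 to 57754737) had the largest rise of the members. It encodes the alpha 1 chain of collagen VIII, a short-chain collagen that vessel wall cells make during remodelling. It was at 3.52, 3.88, 3.23 and 4.48 FPKM in controls and at 17.5, 20.9, 10.3 and 14.4 FPKM in knockout hearts (4.18-fold, change 1.78 ± 0.18, adjusted p = 0.000800). The lowest knockout heart was more than 2-fold above the highest wild type heart, and this was the member still called when a change of at least 1.5-fold was asked for. Its partner Col8a2 was at 0.550 ± 0.0554 FPKM in controls and 0.608 ± 0.192 FPKM in knockout hearts (SD, n = 4) and was not tested.

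Of the 7 laminin chains tested, Lama4 and Lamc1 were called lower and the other 5 did not pass the test. Lama4 (chromosome 10, 38965515 to 39110188), the alpha 4 chain of vascular laminin, was at 41.5, 60.1, 53.4 and 63.2 FPKM in controls and at 41.8, 33.4, 39.6 and 23.4 FPKM in knockout hearts. Wild type replicate 1 lay just below knockout replicate 1, so the groups overlapped (1.58-fold lower, change -0.66 ± 0.19, adjusted p = 0.0499). This call was lost in 6 of 8 omissions, and the largest limma adjusted p, 0.137, came from leaving out wild type replicate 2. Of the 11 other alternatives, 9 ended the call. Among these were the replicate block (adjusted p = 0.124), no filter (0.0887) and a pseudocount of 0.1 (0.0501). The call held with a filter of 5 FPKM (0.0466) and with sample weights (0.0308). Lama5, the other endothelial alpha chain, did not pass, at 13.2, 19.4, 10.1 and 22.5 FPKM in controls and 11.1, 11.8, 7.12 and 6.90 FPKM in knockout hearts (change -0.73 ± 0.25, adjusted p = 0.0906). Its estimated change was as large as that of Lama4, but its wild type values spread more widely (SD 5.66 FPKM on a mean of 16.3 FPKM). Without wild type replicate 3, the lowest of that group, Lama5 was called lower (adjusted p = 0.0466). Lama2, the alpha chain of cardiac and skeletal muscle laminin, was at 23.1, 19.3, 22.6 and 18.3 FPKM in controls and at 20.3, 21.3, 22.1 and 20.2 FPKM in knockout hearts (change 0.01 ± 0.09, adjusted p = 0.936). The 95% interval of its change was -0.19 to 0.22. Of the summed alpha chain FPKM, Lama2 made up 29.6, 19.5, 26.2 and 17.6% in wild type and 27.6, 31.9, 32 and 39.8% in knockout hearts, and these shares overlapped. Lama1 (at most 0.0237 FPKM) and Lama3 (0.176 to 0.383 FPKM) were below the filter in the mean of all 8 libraries.

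The beta chains did not pass the test. Lamb1 was at 51.1, 45.8, 49.3 and 48.4 FPKM in controls and at 47.4, 42.9, 49.6 and 33.5 FPKM in knockout hearts (change -0.18 ± 0.12, adjusted p = 0.338). Without knockout replicate 4, its lowest library, the change was -0.06. Lamb2, the beta chain of synaptic, muscle and arterial laminins, was at 48.4, 46.5, 50.0 and 39.5 FPKM in controls and at 45.9, 41.3, 51.4 and 54.1 FPKM in knockout hearts (adjusted p = 0.742). Per library, the ratio of Lamb1 to Lamb2 was between 0.965 and 1.23 in 7 libraries and 0.619 in knockout replicate 4. Lamb3, a chain of epithelial laminin, was at 4.80, 4.56, 5.31 and 4.98 FPKM in controls and at 3.05, 3.48, 4.87 and 6.58 FPKM in knockout hearts (adjusted p = 0.610). Its level in wild type replicate 4, the library with airway RNA, lay within the range of the other wild type hearts. Lamc1 (chromosome 1, 153218922 to 153332786), the gamma chain of most laminins, was at 102, 115, 110 and 127 FPKM in controls and at 94.2, 77.3, 78.4 and 61.6 FPKM in knockout hearts. No values overlapped (1.46-fold lower, change -0.55 ± 0.12, adjusted p = 0.0212). The call ended in 3 of 8 omissions, with an adjusted p of up to 0.0671 without wild type replicate 2, and with the replicate block (adjusted p = 0.0832). Lamc3, a gamma chain of retinal and brain surface laminins, was at 0.112 to 0.231 FPKM in controls and 0.150 to 0.707 FPKM in knockout hearts and was not tested.

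Main chains of the collagen IV and laminin networks were set side by side in each library. The FPKM ratio of Col4a1 to Lamc1 was 2.58, 2.24, 2.49 and 1.88 in wild type and 4.35, 4.69, 4.59 and 5.63 in knockout hearts. The means were 2.30 ± 0.314 and 4.82 ± 0.562 (SD, n = 4), with no overlap between the groups. The ratio of Col18a1 to Col15a1 was 0.149 ± 0.0143 in wild type and 0.767 ± 0.383 in knockout hearts, where it ran from 0.440 in replicate 1 to 1.32 in replicate 4. These pairs were chosen with the direction of their genes known, so the ratios are given as a description without a test.

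**Figure D3:**
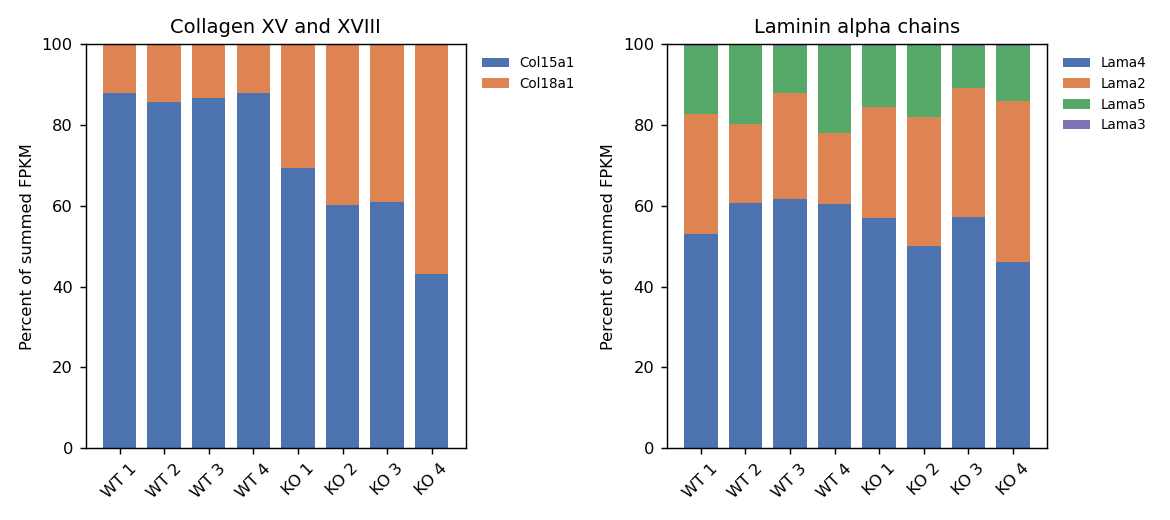
Percent of summed FPKM, from 0 to 100, taken by Col15a1 and Col18a1 (left) and by 4 laminin alpha chains (right) in each of the 8 libraries; each bar is 1 heart library. The part of Col18a1 is 12.1 to 14.4% in wild type and 30.6 to 56.9% in knockout hearts, while the alpha chain shares overlap between the groups.

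Of the linkers and proteoglycans, agrin was called. Nid1, which binds the laminin gamma 1 chain and collagen IV, was at 67.7, 56.8, 67.7 and 63.9 FPKM in controls and at 76.3, 74.3, 70.3 and 71.4 FPKM in knockout hearts. Every knockout value was higher, but the change was small and was not called (0.19 ± 0.08, adjusted p = 0.132). Nid2, its paralog, was at 15.5, 14.3, 14.5 and 16.3 FPKM in controls and at 23.2, 17.3, 19.1 and 17.2 FPKM in knockout hearts, also without overlap (change 0.32 ± 0.10, adjusted p = 0.0722, but 0.0284 with sample weights). Exons of Nid2 share 437 bases with a gene on the other strand, Rtraf, and whether counting used strand is not given. Hspg2, which encodes perlecan, the main heparan sulfate proteoglycan of basement membranes, was at 122, 182, 141 and 158 FPKM in controls and at 145, 125, 119 and 128 FPKM in knockout hearts (adjusted p = 0.290). Agrn (chromosome 4, 156165290 to 156197488), which encodes agrin, a laminin-binding proteoglycan that also organises the neuromuscular junction, was at 20.7, 24.6, 21.4 and 28.3 FPKM in controls and at 17.7, 13.4, 14.8 and 14.5 FPKM in knockout hearts. The groups did not overlap (1.57-fold lower, change -0.62 ± 0.12, adjusted p = 0.0112, or 0.0515 with the replicate block).

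**Figure D4:**
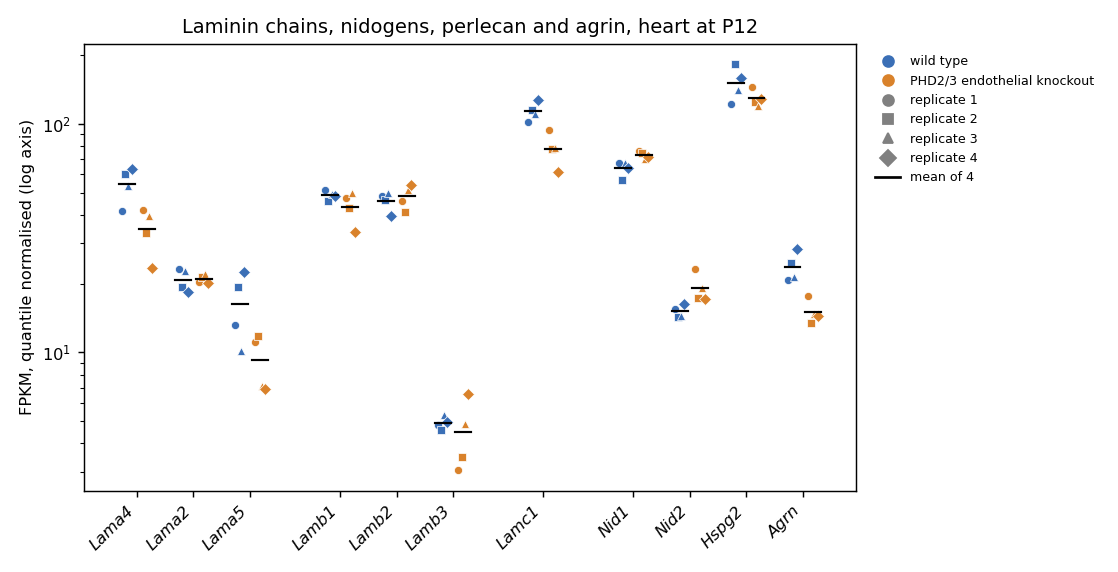
FPKM on a log axis of 7 laminin chain genes, 2 nidogens, perlecan (Hspg2) and agrin (Agrn) in each heart library; blue is wild type, orange is knockout, the marker shape is the replicate number with the group mean as a black line. Lamc1 and Agrn are lower in all 4 knockout hearts, Lama4 and Lama5 are lower in the mean with overlap, and Lamb2 and Lama2 overlap throughout.

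The deepest falls were those of Hmcn2 and Vtn. Hmcn2 (chromosome 2, 31314415 to 31460738) encodes hemicentin-2, a very large matrix protein of the fibulin family that joins neighbouring basement membranes. It was at 9.16, 7.51, 8.52 and 8.07 FPKM in controls and at 3.40, 1.27, 1.02 and 0.0941 FPKM in knockout hearts (change -2.10 ± 0.34, adjusted p = 0.00688). The mean was 5.75-fold lower, or 10.5-fold lower without knockout replicate 1. Its paralog Hmcn1 did not pass the test, at 5.94, 8.17, 9.82 and 8.95 FPKM in controls and at 8.42, 10.4, 7.40 and 8.26 FPKM in knockout hearts (change 0.07 ± 0.15, 95% interval -0.25 to 0.40). Vtn (chromosome 11, 78499091 to 78502324) encodes vitronectin, an adhesive glycoprotein of plasma and matrix. It was at 19.9, 23.5, 19.3 and 19.5 FPKM in controls and at 10, 3.02, 5.17 and 1.86 FPKM in knockout hearts, 4.09-fold lower in the mean (change -2.02 ± 0.35, adjusted p = 0.00963). Liver makes most plasma vitronectin, and of 8 hepatocyte markers, Alb, Apob, Serpina1a and Fgb were listed at 0 in all wild type hearts. In the same hearts Ahsg was at 6.99 to 8.26 FPKM and Apoa2 at 0.446 to 2.61 FPKM. Ttr was at 0.28 to 0.599 FPKM and Apoa1 at 0 to 0.0803 FPKM. The sum of the 8 markers, of which Ahsg was the largest in every library, was 8.86 to 11.3 FPKM in controls and 4.10 to 23.4 FPKM in knockout hearts. The source of the Vtn RNA was not tested.

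Among the smaller secreted members, Smoc2 fell and Tinagl1 rose. Smoc2 (chromosome 17, 14279506 to 14404790), a SPARC-related calcium-binding protein, was at 30.2, 26.5, 27.9 and 31.9 FPKM in controls and at 17.2, 14.7, 16.7 and 11.5 FPKM in knockout hearts. Its groups were far apart (1.94-fold lower, change -0.92 ± 0.12, adjusted p = 0.00243), while its paralog Smoc1 was at 4.0 to 4.91 FPKM in controls and 2.55 to 6.02 FPKM in knockout hearts (adjusted p = 0.623). Tinagl1 (chromosome 4, 130164454 to 130175122), a matrix protein that binds integrins and laminin, was at 35.0, 34.8, 30.6 and 36.7 FPKM in controls and at 47.1, 45.5, 43.3 and 48.1 FPKM in knockout hearts. The rise was small but tight within the groups (1.34-fold, change 0.42 ± 0.08, adjusted p = 0.0106). Npnt, which encodes nephronectin, a ligand of integrin alpha 8 beta 1, was at 1.33 to 2.60 FPKM in controls and 0.833 to 2.23 FPKM in knockout hearts (adjusted p = 0.249). Vwa1, a perlecan-binding protein, was at 7.26 to 10.4 FPKM in controls and 6.51 to 11.3 FPKM in knockout hearts (adjusted p = 0.937), and 21.0% of its exon bases lie within a long noncoding RNA gene on the other strand, Gm26840.

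The knockout hearts kept nearly the same order across the members that fell. Knockout replicate 1 was the highest knockout library in all 7 of them, and replicate 4 was the lowest in 6, with Agrn lowest in replicate 2. The 7 members were measured in the same libraries, so they are not independent counts of this order. How often it occurs among all genes called lower was not counted, so it may not be particular to these members. In percent of the wild type mean, replicate 1 was at 40.9% for Hmcn2, 48.8% for Vtn, 65.6% for Col15a1 and 82.8% for Lamc1. Replicate 4 was at 1.13%, 9.07%, 15.7% and 54.2% for the same genes. Over the 5 members that rose, no such order was seen: replicate 1 was the highest in 2 and replicate 4 in 2, and Tinagl1 ran only from 126 to 140%. Knockout replicate 1 is the knockout library with almost no Ddx3y, which was also low in controls 2 and 3, and the part of sex in this order was not tested. With Ddx3y as a covariate, 5 members were higher and 5 lower. The calls lost were those of Col15a1 (change -1.26 ± 0.35, limma adjusted p = 0.0613) and Lama4 (change -0.58 ± 0.18, adjusted p = 0.0788). Fibroblast markers summed to 1210 to 1420 FPKM in controls and to 985, 1000, 981 and 670 FPKM in knockout replicates 1 to 4. Replicate 4 thus had the lowest sum, and it was also the lowest in most lowered members. Replicate 1 did not have the highest sum. Against 6.01% of all tested genes called lower, 3 of 8 fibroblast markers were called, all lower. Among the knockouts, these 3 were lowest in replicate 4. Dcn (259 FPKM) and Lum (81.4 FPKM) were highest in replicate 1, and Dpt (77.1 FPKM) in replicate 3. The 5 not called were highest in replicate 2, 3 or 4. Without adjustment, 5 of the 8 had a limma p under 0.05, all lower, where 14.8% of all tested genes were lower. The part of these markers in the falls was not tested. Of 9 mural cell markers, 1 was called, Tagln, as higher. Their sum, in which Acta2 was the largest part, was 711 to 1160 FPKM in controls and 696 to 981 FPKM in knockout hearts. At an unadjusted limma p under 0.05, 1 was higher and 1 lower, Kcnj8 (change -0.62 ± 0.21, adjusted p = 0.0896). Among the knockouts Kcnj8 was highest in replicate 1 (24.7 FPKM) and lowest in replicate 4 (9.98 FPKM), while Rgs5 was highest in replicate 4 (285 FPKM). The part of mural cells in the falls was not tested.

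**Figure D5:**
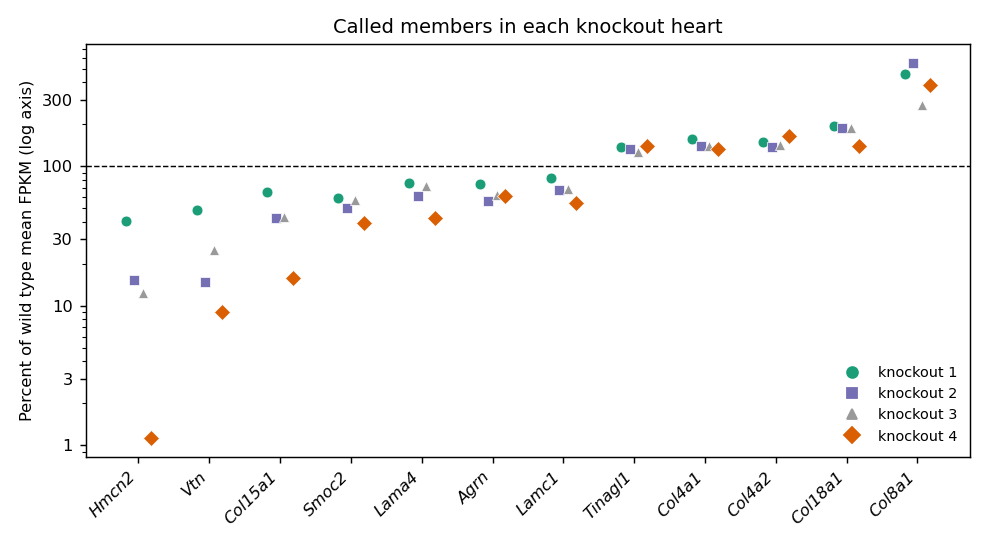
Level of the 12 called members in each knockout heart as a percent of the wild type mean FPKM, on a log axis with the wild type mean dashed at 100; each marker is 1 knockout library and genes are ordered by their change. Replicate 1 is the highest library in all 7 lowered members and replicate 4 the lowest in 6, down to 1.13% for Hmcn2, while the 5 raised members show no such order.

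Receptors and assembly factors of the same matrix were read from lists of their own. Of 26 tested receptor genes, 6 were higher, 1 was lower and 19 did not pass the test, with a median change of 0.11. These are to be read against the 6.15% of all tested genes called higher and 6.01% called lower, and with the replicate block 4 receptors were higher and 0 lower. Itgb3, a beta subunit of the vitronectin receptor, rose from 1.2 ± 0.145 to 5.86 ± 2.39 FPKM (SD, n = 4, change 1.58 ± 0.19, adjusted p = 0.00171). Its partner Itgav was at 9.05 FPKM in controls and 8.55 FPKM in knockout hearts (adjusted p = 0.809). Itgb5, another integrin beta subunit of the list, was at 32.4 FPKM in controls and 35.2 FPKM in knockout hearts (change 0.11 ± 0.11, adjusted p = 0.538). A link between Itgb3 and the fall of Vtn was not tested. Sdc4 and Gpc1, which encode cell-surface heparan sulfate proteoglycans, rose 1.69-fold and 1.58-fold, Itga5, a subunit of the fibronectin receptor, 1.33-fold, and Sgcd, a sarcoglycan of the dystrophin complex, 1.97-fold. Itgb1, the beta subunit shared by most laminin and collagen receptors, rose 1.24-fold to 265 ± 19.9 FPKM (adjusted p = 0.0452). Itga6, an alpha subunit of laminin receptors, was the receptor that fell, from 41.7 ± 3.32 to 31.9 ± 4.39 FPKM (change -0.38 ± 0.11, adjusted p = 0.0452). This call was lost in 7 of 8 omissions (adjusted p = 0.0563 to 0.113) and under 8 other alternatives, and it held without knockout replicate 1 (adjusted p = 0.0193).

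Among 18 tested genes for folding, export and cross-linking of collagen, 6 were higher, 0 lower and 12 did not pass the test, with a median change of 0.29, against 6.15% higher and 6.01% lower over all tested genes. With the replicate block, 4 were higher. At an unadjusted p under 0.05 in limma, 9 of the 18 were higher and 0 lower, where 14.9% of all tested genes were higher and 14.8% lower. At the same p, 10 receptors were higher and 1 lower, and 6 genes of the list that follows were higher and 3 lower. Loxl2, which oxidises lysines of collagen IV, rose 2.08-fold, and Lox 2.57-fold to 20.8 ± 8.24 FPKM (change 1.18 ± 0.24, adjusted p = 0.0145). The lysyl hydroxylase Plod2 rose 1.68-fold, the prolyl hydroxylases Leprel1 and P4ha2 1.93-fold and 1.35-fold, and Sparc, a collagen-binding chaperone of matrix, 1.39-fold to 1180 ± 202 FPKM. Pxdn, the peroxidase that forms the sulfilimine bonds of collagen IV, was at 41.7 FPKM in controls and 36.5 FPKM in knockout hearts (adjusted p = 0.346), and the collagen chaperone Serpinh1 was at 202 and 171 FPKM (adjusted p = 0.290).

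Of 14 tested genes for other proteins at basement membranes, 4 were higher, 3 lower and 7 did not pass the test, against the same 6.15% and 6.01% of all tested genes, with a median change of 0.26. Fbln2, a fibulin that binds nidogen and perlecan, rose from 59.3 ± 4.52 to 111 ± 27.4 FPKM (adjusted p = 0.00700). Its paralog Fbln1, which binds nidogen and laminin, fell from 31.1 ± 1.72 to 18.3 ± 2.04 FPKM (change -0.74 ± 0.09, adjusted p = 0.00171), with every knockout value below every wild type value. Papln, a papilin of matrix, fell 2.49-fold and Matn2, an adaptor that binds collagen and laminin, 1.42-fold. Thbs4 rose 3.95-fold and Frem2 1.63-fold, and Fn1, which encodes fibronectin, 1.65-fold to 66.7 ± 17.1 FPKM (adjusted p = 0.0371).

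Promoter sequence was read from RefSeq on GRCm38.p6 for the 22 members with an entry, as the 250 bases before each start. The HIF core motif was searched as ACGTG and GCGTG on both strands. At least 1 match stood in a window of 10 of these 22 genes, against 41.5% of all 27025 genes with an entry. It was found in 2 of 5 raised members, Col4a1 and Col4a2, and in 3 of the 4 lowered members with an entry, Agrn, Hmcn2 and Vtn. A match is a description and not a site. The windows of 2 genes without a match, the most raised member Col8a1 (chr16:57754738-57754987, minus strand) and the lowered Col15a1 (chr4:47207762-47208011, plus strand), are shown with those of 2 lowered genes that hold it, Hmcn2 (chr2:31314082-31314331, plus strand) and Agrn (chr4:156197489-156197738, minus strand). Each reads 5′ to 3′ up to the base before the RefSeq start, and capitals mark a match.
Col8a1: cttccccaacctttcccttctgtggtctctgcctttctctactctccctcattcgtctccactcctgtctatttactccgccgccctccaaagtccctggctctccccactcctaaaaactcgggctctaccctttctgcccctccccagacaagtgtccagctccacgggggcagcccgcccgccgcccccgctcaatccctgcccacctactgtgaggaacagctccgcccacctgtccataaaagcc
Col15a1: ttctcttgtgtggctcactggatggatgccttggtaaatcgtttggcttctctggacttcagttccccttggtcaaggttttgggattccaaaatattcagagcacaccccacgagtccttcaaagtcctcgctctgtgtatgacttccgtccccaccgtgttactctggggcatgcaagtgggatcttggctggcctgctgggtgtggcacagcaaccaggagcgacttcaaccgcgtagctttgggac
Hmcn2: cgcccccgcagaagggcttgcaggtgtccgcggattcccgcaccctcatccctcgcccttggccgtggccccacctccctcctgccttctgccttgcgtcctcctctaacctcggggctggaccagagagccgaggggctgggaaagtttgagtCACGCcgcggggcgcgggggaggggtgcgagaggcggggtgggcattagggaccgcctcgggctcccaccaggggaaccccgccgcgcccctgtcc
Agrn: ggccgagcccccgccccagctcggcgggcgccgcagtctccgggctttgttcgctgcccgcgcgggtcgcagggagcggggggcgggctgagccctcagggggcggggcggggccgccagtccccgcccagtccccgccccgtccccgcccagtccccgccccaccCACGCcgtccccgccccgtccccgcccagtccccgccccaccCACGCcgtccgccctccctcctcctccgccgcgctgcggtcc
Matches in Agrn began 84 and 42 bases before the start and the one in Hmcn2 96 bases before it, all 3 read on the opposite strand of the window as printed. A second, internal RefSeq start of Agrn had no match.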

How the data were processed

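Whole-heart RNA (RNeasy kit) was sequenced from Illumina TruSeq libraries, per the labels' protocols. The submitters' processing notes name TopHat2, Cufflinks and mm10; versions, annotation and strand use were not given in the sources used here. The authors deposited 1 column per library, read here as FPKM since that is the unit of Cufflinks and the numbers are fractional. It is quantile normalised (the top 39 ranks are identical across libraries), so totals carry no depth, and global shifts of any size cannot be seen.

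Groups came from the labels. Every gene whose 8-library mean reached 1 FPKM was tested on log2(FPKM + 1) with limma 3.58.1 (R 4.3.3; lmFit, eBayes with trend and robust options, no covariate), with Benjamini-Hochberg adjustment over all 11390 genes kept. The fit was tested on simulated data first. An exact permutation test was added for Egln1 and Egln3. Locations and exon overlaps came from GENCODE M21 (mm10), which located all 32 members. Ratios and shares were taken per library. Python 3.11.15, pandas 2.3.3 and matplotlib 3.10.9 were used. The members, lists and pairs were chosen with earlier results of these data known, and no list was tested as a set. All members were named by rule, and from the receptor, assembly and other basement membrane lists up to 6 genes with the smallest p. Itgb1, Itgav, Itgb5, Fn1, Pxdn and Serpinh1 were named after their values were seen. So were the single genes of the cell type marker lists, which were planned as counts and summed levels. Alternatives changed the pseudocount, filter, scaling, variance model, weights, threshold, block, covariate and samples; those with Bmp10, and those of the third list, Egln1, Egln3, Itga6 and the ratios, were added after seeing the data.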

Additional observations from a re-analysis of the deposited data

Results flagged for a closer look

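Col18a1 was at 23.7 FPKM in knockout replicate 4 and at 31.8 to 33.0 FPKM in the other 3 knockout hearts, a gap of 0.873 of the group's range. Vtn was at 23.5 FPKM in wild type replicate 2 and at 19.3 to 19.9 FPKM in the other 3 wild type hearts, a gap of 0.855. Both gaps exceeded Dixon's 95% critical value for 4 samples. They are 2 of 56 groups looked at, and chance alone gives about 1 in 20. Col18a1 was called higher and Vtn lower in each of the 8 omissions of 1 library.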

How the results depend on the processing

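The number of genes called was 1385 as reported, 37 when a change of at least 1.5-fold was asked for, 613 with the replicate block, and 575 to 1820 when 1 library was left out (lowest without control 2, highest without knockout 1). The members higher were 5 in every omission and 1 with the minimum change; the members lower were 4 to 7 in the omissions (4 without wild type replicate 2, wild type replicate 4 or knockout replicate 2), 3 with the replicate block and 0 with the minimum change. Receptors higher were 3 to 7 in the omissions, 4 with the replicate block and 0 with the minimum change. Receptors lower were 0 to 1 in the omissions and 0 with no filter, median rescaling, no trend, the minimum change, the replicate block, Ddx3y, Bmp10 or without both libraries numbered 4. Assembly genes higher were 4 to 6 in the omissions, 4 with the replicate block and 0 with the minimum change. Other basement membrane genes higher were 1 to 5 in the omissions, 2 with a filter of 5 FPKM and 0 with the minimum change, and those lower 2 to 3 and 0.

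Of the 16 members not called, 7 changed sign under some alternative. In the omissions Col4a3 ran from -0.03 to 0.10, Col4a4 from -0.08 to 0.07, Lama2 from -0.04 to 0.06, Lamb2 from -0.01 to 0.13, Hmcn1 from -0.06 to 0.16, Smoc1 from -0.31 to 0.02 and Vwa1 from -0.15 to 0.09. Without both libraries numbered 4, Col4a3 was at 0.00, Col4a4 at 0.03, Lama2 at -0.03, Lamb2 at -0.07, Vwa1 at 0.17 and Egln1 at 0.00. With sample weights Lama2 was at -0.02, Lamb2 at -0.04 and Vwa1 at 0.07, and with Ddx3y Col4a4 was at 0.00, Vwa1 at 0.05 and Egln3 at 0.70 (limma adjusted p = 0.0222). The cause was not tested.

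Deviations of same-numbered libraries correlated at -0.226, 0.009, 0.102 and -0.097, and 1 of 4 wild type libraries correlated best with its own number. These correlations cannot show whether same-numbered libraries shared a litter, dissection or batch. Bmp10 was high in replicates 2 and 3 of both groups, so at least 1 gene followed the replicate number. Depth is unknown, so counting error could not be given.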
